A study of Mus musculus with 18 samples.

Results

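Glomerular matrix is remodelled by metalloproteinases, and 83 genes of the ADAM, ADAMTS, ADAMTS-like, MMP and TIMP families were followed here in 3 sorted cell types of the mouse glomerulus. The members were all genes of the deposited array table whose whole symbol is *Adam*, *Adamts*, *Adamtsl*, *Mmp* or *Timp* followed by a number and at most 1 letter. They comprise 32 ADAM, 19 ADAMTS, 5 ADAMTS-like, 23 MMP and 4 TIMP genes among 22909 gene symbols, and lie on 116 of 28856 transcript clusters, the probe groups that each give 1 signal per array. Where a gene had several clusters, its brightest cluster by mean over the 18 arrays was used.

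The arrays came from glomeruli of *Cd2ap* mutant mice, a model of focal segmental glomerulosclerosis that lacks the adapter protein CD2AP of the podocyte slit diaphragm, and of controls, all at 5 weeks of age. Mesangial cells carried the *Meis1-GFP* transgene and endothelial cells *Tie2-GFP*, in mutants and controls alike, podocytes were likewise marked by GFP, and GFP positive cells were sorted by FACS. Each of the 6 groups, labelled CD2AP-/- or wildtype in each cell type, holds 3 arrays, called A, B and C here, and the series record calls them biological triplicates. The mutation is present in every cell of the mouse, so a difference in mesangial or endothelial cells is measured in a kidney that also has mutant podocytes. Column names give the genotype of the 3 mesangial controls as plus over minus and that of the other controls as plus over plus, but each of the 9 control records says wildtype, which is used here.

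MMPs are zinc endopeptidases that cut collagens, proteoglycans and other matrix proteins, either secreted or held at the cell surface in the membrane type. ADAMs are membrane proteases that shed the ectodomains of growth factors and receptors, and ADAMTS proteases are secreted and cut hyalectans such as versican and aggrecan, or trim procollagen. TIMPs bind the active site of these enzymes and inhibit them, and in the glomerulus the balance of both sides sets how fast mesangial matrix and basement membrane turn over.

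*Cd2ap*, the mutated gene, was read first as a check of the labels. Its signal was 926 ± 37.5 (SD, n = 3) in endothelial arrays labelled mutant and 819 ± 53.9 in wild type ones, so it was not lower there. In mesangial cells it was 829 ± 37.6 against 1027 ± 101, and in podocytes 1498 ± 17.6 against 1775 ± 295. Whether the probes lie outside the disrupted part of the gene was not tested, so the genotype of each array rests on its label. The arrays were alike in scale, with median signals between 62.8 and 71.6 and between 9697 and 10097 clusters at a signal of at least 100.

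The cell type labels were checked against marker lists. Podocyte arrays summed to between 10698 and 13370 over 7 podocyte markers and endothelial arrays to between 14786 and 17105 over 7 endothelial markers. Mesangial arrays summed to between 4353 and 7229 over 5 mesangial markers. In wild type mesangial array C the endothelial sum was 7527, against 2244 and 2640 in its replicates, and the podocyte sum 3536, against 785 and 958. In podocyte arrays the endothelial sum was 4224 to 5625 in wild type and 656 to 2484 in those labelled mutant, and the mesangial sum 2082 to 2764 against 689 to 1866. Over 3 erythroid markers wild type mesangial array C summed to 7227, against 559 and 271 in its replicates. Mutant podocyte array A summed to 5377 over them, against 692 and 202 in its replicates and 2962 to 3963 in wild type podocyte arrays. Wild type mesangial array C and mutant podocyte array A thus stand apart from their replicates. The podocyte arrays also differ by genotype in the endothelial and mesangial markers. In sorted bulk samples fewer cells of a type and less RNA per cell cannot be told apart, and 3 arrays per group limit the precision of every value.

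A signal of 100 in at least 1 array was reached by 37 of the 83 members, and 46 stayed below it in all 18 arrays, with their highest signals between 22.3 and 89. A signal below this minimum is near the background of the arrays and does not show that a gene is silent. By role, it was reached by 9 of 12 sheddases and other ADAMs known outside the germline, and by 2 of 20 remaining ADAMs, known mainly from the germline. Among the ADAMTS proteases it was reached by 4 of 7 hyalectanases, 2 of 3 procollagen N-proteinases and 6 of 9 others. It was also reached by 2 of 5 ADAMTS-like genes, which code for secreted proteins without a protease domain, by 4 of 6 membrane type MMPs, 1 of 2 gelatinases, 3 of 4 stromelysins and matrilysin, 2 of 7 other MMPs and 2 of 4 TIMPs. None of the 4 collagenase genes, *Mmp1a*, *Mmp1b*, *Mmp8* and *Mmp13*, reached it. The gelatinase *Mmp9* lay between 40.2 and 58.9, *Timp1*, the inducible inhibitor, between 33.1 and 57.4, and *Timp4* between 36.4 and 72.6. In all 18 arrays at once the minimum was reached by 14 members, among them *Adam9*, *Adam10*, *Adam15*, *Adam17*, *Adamts1*, *Adamts5*, *Mmp14*, *Timp2* and *Timp3*.

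The signal read for 5 members comes from a cluster that carries further symbols. *Mmp7*, matrilysin, is the clearest case, since its brighter cluster, with a mean signal of 1491, also carries *Rpl29*, a ribosomal protein gene, while the cluster with the *Mmp7* symbol alone had a mean of 49.2 and never exceeded 61.4. The bright signal cannot be ascribed to *Mmp7*, and it is kept in the counts below but not described as matrilysin.

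Promoters of 4 members are shown, of *Mmp3*, *Timp3* and *Adam10* because they appear in the genotype comparisons below, and of *Mmp13* for comparison with *Mmp3*. In the RefSeq promoter table, build GRCm38.p6, 52 of the 83 members have an entry, 57 promoters in all, and the 250 bases before the start site were read. The AP-1 motif, TGACTCA or its complement TGAGTCA, which binds Fos and Jun dimers, was searched on both strands and lies in 9 of the 57 member promoters, and in 4.45% of 32536 promoters of all genes. Of those 9 promoters 7 belong to MMP genes, all of them on chromosome 9, and 6 of the 7 also hold a TATAAA. The GC box GGGCGG, searched on both strands, was found in 24 of the 57 member promoters and in 33% of all promoters. Capitals mark the AP-1 motif and TATAAA in the promoters of the stromelysin *Mmp3* and the collagenase *Mmp13*, both on the plus strand of chromosome 9, at chr9:7445572-7445821 and chr9:7272264-7272513.
Mmp3: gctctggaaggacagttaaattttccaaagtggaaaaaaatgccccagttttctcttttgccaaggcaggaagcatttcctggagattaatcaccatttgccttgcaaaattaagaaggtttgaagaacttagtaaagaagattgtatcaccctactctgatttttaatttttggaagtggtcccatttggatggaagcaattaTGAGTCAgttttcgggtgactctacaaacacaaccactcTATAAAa
Mmp13: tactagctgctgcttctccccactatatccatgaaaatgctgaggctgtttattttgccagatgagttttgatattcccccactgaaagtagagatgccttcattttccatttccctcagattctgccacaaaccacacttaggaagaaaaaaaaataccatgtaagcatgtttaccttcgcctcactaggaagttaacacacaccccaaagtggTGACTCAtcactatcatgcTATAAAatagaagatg
The promoters of the inhibitor *Timp3*, chr10:86300162-86300411, and of the sheddase *Adam10*, chr9:70678732-70678981, both on the plus strand, hold neither of those motifs. In them capitals mark GGGCGG or its complement CCGCCC.
Timp3: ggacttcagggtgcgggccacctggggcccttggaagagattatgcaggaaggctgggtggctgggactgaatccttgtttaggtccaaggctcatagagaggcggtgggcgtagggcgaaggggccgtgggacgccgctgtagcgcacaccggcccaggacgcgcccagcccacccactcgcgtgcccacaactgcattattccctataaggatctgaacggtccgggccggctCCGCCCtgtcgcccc
Adam10: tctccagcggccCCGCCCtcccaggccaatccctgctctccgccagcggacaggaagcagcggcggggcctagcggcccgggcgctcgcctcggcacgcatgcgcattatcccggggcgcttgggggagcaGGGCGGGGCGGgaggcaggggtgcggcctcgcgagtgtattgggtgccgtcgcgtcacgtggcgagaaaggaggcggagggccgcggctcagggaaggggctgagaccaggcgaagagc
The *Mmp3* and *Mmp13* promoters each hold 1 CpG, the *Timp3* promoter 18 and the *Adam10* promoter 29, against a median of 6 over all promoters. A match to these letters is a description of the window, not a bound site. Of the 7 MMP genes with the AP-1 motif only *Mmp3* reached a signal of 100 on a cluster that carries no other symbol.

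**Figure D1:**
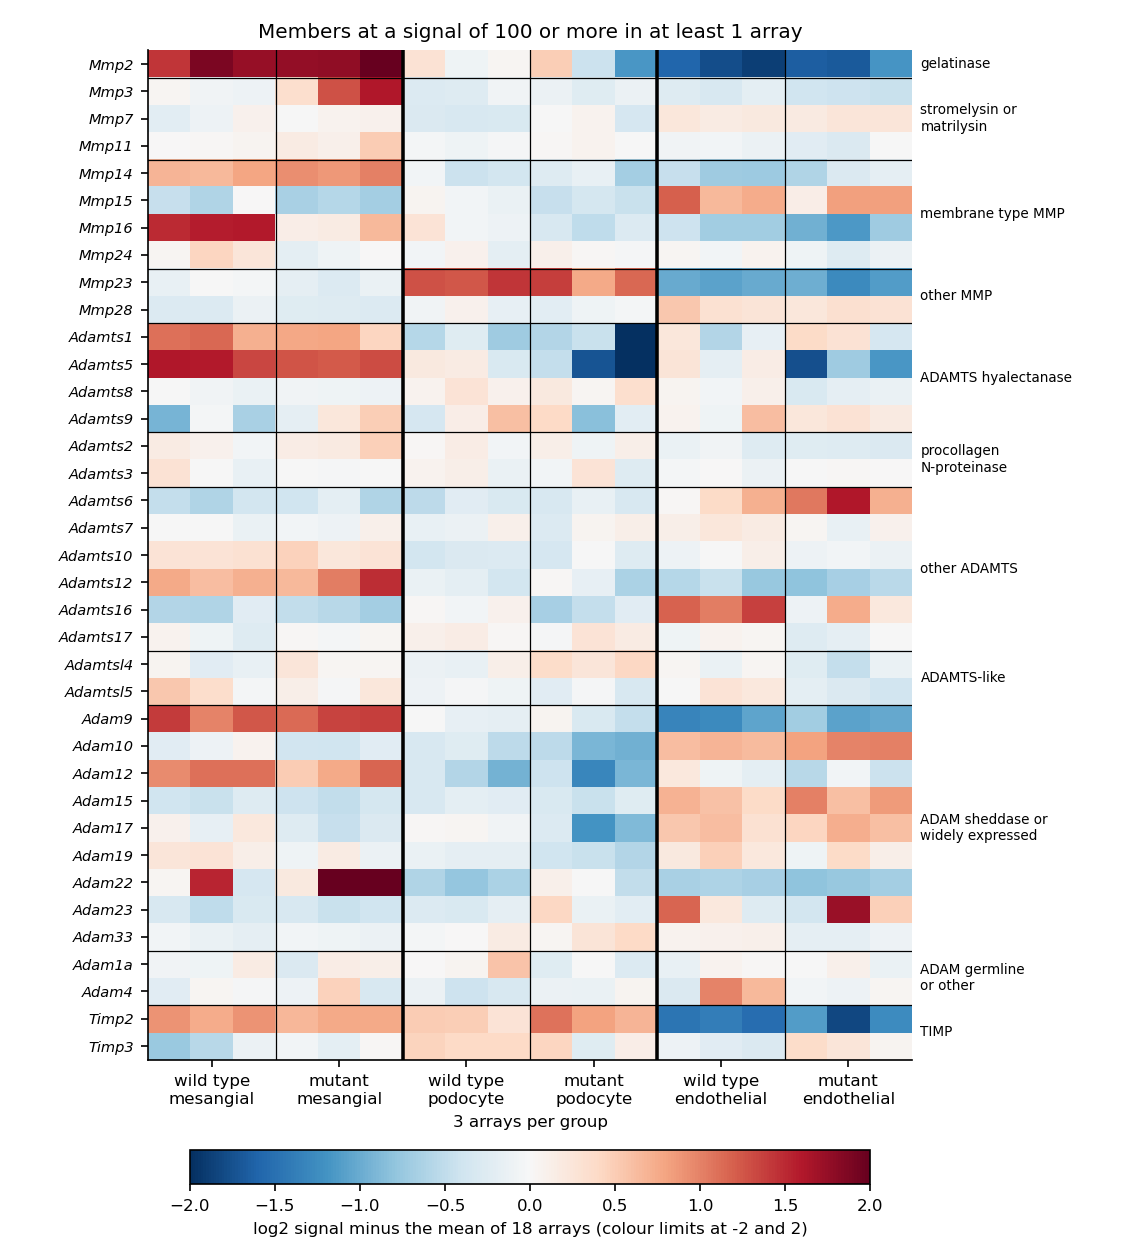
Log2 signal of the 37 members that reached 100 in at least 1 array, each minus its mean over the 18 arrays (colour scale from -2 to 2), with members in rows grouped by role and the 3 arrays of each cell type and genotype in columns. *Mmp2* and *Adam9* are highest in the mesangial columns of both genotypes and *Mmp23* in the podocyte columns, while *Mmp16* is paler in the mutant than in the wild type mesangial columns.

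The first comparison asked which proteases and inhibitors distinguish the cell types in arrays labelled wild type. Mesangial and endothelial cells carried different transgenes, and column names give only the mesangial controls as plus over minus. Differences between cell types therefore cannot be told apart from those of transgene or, if the column names hold, of *Cd2ap* genotype. In wild type arrays 33 members were tested, with limma on log2 signals over the 12537 clusters that reached a signal of 100 somewhere in the 9 arrays. Between podocytes and mesangial cells 14 of 33 members differed at an adjusted p under 0.05, 3 higher and 11 lower in podocytes, which is 42.4% of those tested against 27.9% of all clusters tested. Podocytes and endothelial cells differed in 18 members, 8 higher and 10 lower in podocytes, or 54.5% against 38.8% of all clusters. Mesangial and endothelial cells differed in 18 members, 11 higher and 7 lower in mesangial cells, or 54.5% against 32.0%. In absolute terms the median log2 difference of the members was 0.35, 0.42 and 0.73 in these 3 comparisons, and that of all clusters tested 0.22, 0.26 and 0.23. Some members entered the test only through the cell type in which they are high, which favours a difference, so these shares describe the tested members and not the families. Where every array of the dimmer group lay below the signal minimum, near background, a difference is given below as at least the value obtained with that group set to 100.

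Mesangial cells had the highest level of 10 members, each called higher there than in both other cell types. The share of all clusters with their highest level in 1 cell type is not given here, so such counts per cell type describe these members only. *Mmp2*, gelatinase A, which cuts denatured collagen and type IV collagen, had signals of 699, 961 and 867 in wild type mesangial arrays, 317, 246 and 268 in podocyte arrays and 86.9, 76.0 and 70.3 in endothelial arrays. The 3 groups did not overlap, and the mesangial level exceeded the podocyte level by 1.6 ± 0.14 (SE) and the endothelial level, below the minimum, by at least 3.06 on the log2 scale, with adjusted p of 4.67e-05 and 1.74e-07. *Mmp14*, the membrane type MMP that activates pro-MMP2 in a complex with TIMP2, followed the same order, with 471, 457 and 506 in mesangial cells, 281, 217 and 226 in podocytes and 213, 179 and 176 in endothelium. *Timp2* itself read 1062, 947 and 1053 in mesangial cells, 807, 801 and 683 in podocytes and 205, 217 and 197 in endothelium. All 3 genes of this activation complex thus had their highest level in mesangial cells and their lowest in endothelium, with mesangial minus endothelial differences of 1.34 for *Mmp14* and 2.3 for *Timp2* and the bound above for *Mmp2*.

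*Mmp16*, a second membrane type MMP, read 212, 224 and 227 in mesangial cells and at most 91 in the other wild type arrays, all of them below the minimum, so its log2 difference from either was at least 1.14. *Adamts5*, the hyalectanase that cuts versican and aggrecan, read 2732, 2693 and 2271 in mesangial cells. Podocytes had 1026, 999 and 725 and endothelial cells 1076, 792 and 998, so those groups overlapped and the mesangial level lay 1.5 and 1.43 above them. *Adamts1*, a related versican-cutting protease, lay 1.17 above endothelium and 1.5 above podocytes. Among the ADAMs, *Adam9*, a widely expressed sheddase, read 982, 746 and 879 in mesangial cells, and lay 1.32 above podocytes and 2.42 above endothelium. *Adam12*, a sheddase known from mesenchymal cells, read 292, 325 and 325 there and lay 1.07 above endothelium and 1.67 above podocytes. The remaining mesangial-high members were *Adamts12* and *Adamts10*, the latter with a smaller margin of 0.28 over endothelium.

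Endothelial cells had the highest level of 7 members, 1 of which is the cluster that *Mmp7* shares with *Rpl29*, whose difference from mesangial cells missed the threshold in 11 of 15 alternatives. *Adamts16*, a secreted protease linked to blood pressure in rodents, read 236, 212 and 270.5 in wild type endothelium, 106, 100.4 and 111 in podocytes and 69.5, 68.7 and 88.8 in mesangial cells. The groups were separate, with a difference of 1.17 over podocytes and of at least 1.252 over mesangial cells, which lay below the minimum. *Mmp15*, a membrane type MMP, read 206, 141 and 149.7 in endothelium and lay at least 0.71 above podocytes and mesangial cells, where no array reached 100. The sheddases *Adam15*, *Adam10* and *Adam17* were each higher in endothelium than in both other cell types, by 0.80 to 0.92, 0.73 to 1.01 and 0.44 to 0.49. *Adam17*, which releases TNF and ligands of the EGF receptor, had the smallest of those margins, and its difference from mesangial cells missed the threshold in some alternatives. The cluster of *Mmp28*, epilysin, was called with signals at or below 105, but it is 1 of the 5 that carry further symbols, and no cluster carries *Mmp28* alone.

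Podocytes had the highest level of 2 members. *Mmp23*, a small MMP held in the membrane until it is cleaved, read 387, 381 and 434 in podocytes, 145, 159 and 156 in mesangial cells and 80.1, 76.7 and 79.9 in endothelium. Each podocyte array exceeded every other wild type array, and the difference was 1.39 ± 0.09 over mesangial cells and at least 2.0 over endothelium, which lay below the minimum, with adjusted p of 1.11e-05 and 1.07e-07. *Timp3*, the inhibitor that binds to matrix and also blocks ADAM10, ADAM17 and ADAMTS5, read 2516, 2440.1 and 2443 in podocytes, 1108, 1255 and 1695 in mesangial cells and 1719, 1582 and 1508 in endothelium. Its podocyte level lay 0.89 and 0.62 above the other cell types, and 1695 was the value of mesangial array C, the array with endothelial and podocyte markers. Without that array 16, 17 and 19 members were called in the 3 comparisons, but the share of all clusters called in that fit is not given here. In the same fit *Timp3* lay 1.06 above mesangial cells. Both detected inhibitors were therefore higher in podocytes than in endothelium, *Timp2* by 1.88 and *Timp3* by 0.62.

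**Figure D2:**
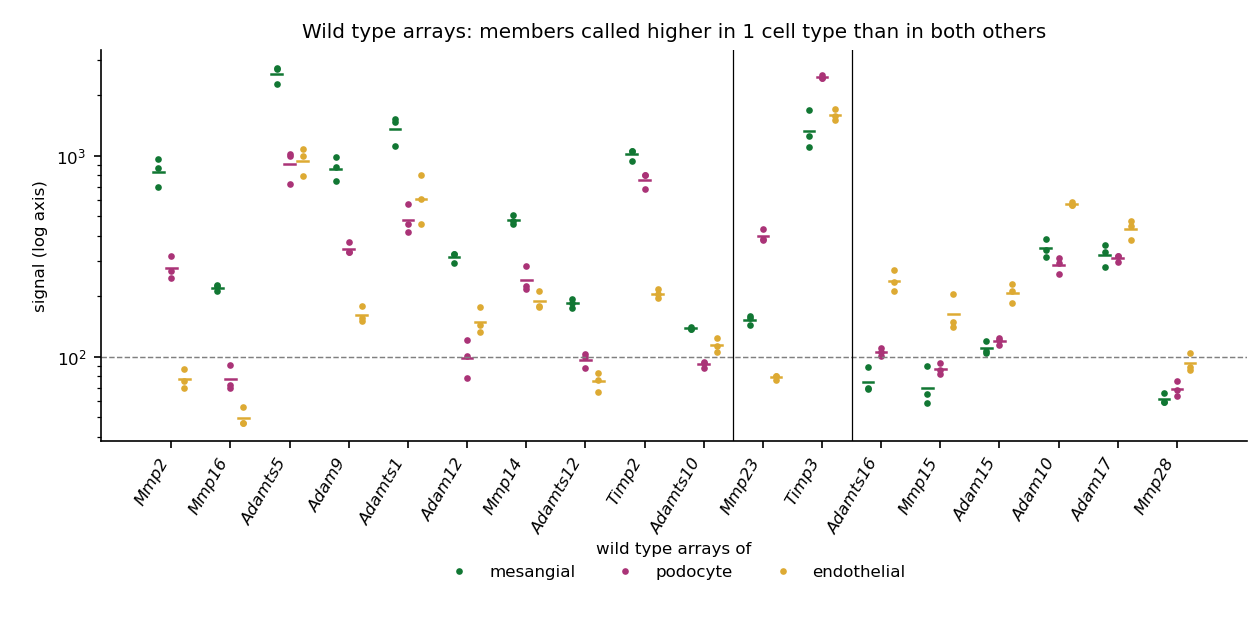
Signals (log axis) of the 18 members called higher in 1 wild type cell type than in both others, leaving out the cluster that *Mmp7* shares with *Rpl29* (that of *Mmp28* is also shared), 3 arrays per cell type with the geometric mean as a bar and the signal minimum of 100 as a dashed line. The members from *Mmp2* to *Adamts10* are highest in mesangial cells, *Mmp23* and *Timp3* in podocytes and those from *Adamts16* to *Mmp28* in endothelium.

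The same comparisons among the 9 arrays labelled mutant, chosen after the wild type values were seen, called 14, 16 and 22 members, against 29.0%, 47.1% and 22.8% of 13063 clusters. In each comparison 30 members were tested in both genotypes. Of the members called in wild type, 11 of 14, 11 of 17 and 15 of 17 that were also tested there were called in the same direction. The share of all clusters called again in this way is not given here, so these counts describe the members only. Wild type podocyte arrays carry endothelial and mesangial markers in the sums given above, and the part of these in the podocyte levels of *Adamts5*, *Mmp2* and *Mmp16* was not tested.

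The second comparison asked whether the expression of members differed between *Cd2ap* mutant and wild type cells of each type. Calls at an adjusted p under 0.05 were few. In mesangial cells 1 of 29 tested members was called, 3.45%, against 2.92% of the 11457 clusters tested, and 8 had an unadjusted p under 0.05, against 21.7% of clusters. In podocytes none of 27 was called by limma, against 0.0578% of 12113 clusters, and 7 members had an unadjusted p under 0.05, against 14.3% of clusters. In endothelial cells none of 28 was called, against 1.29% of 11330 clusters, and 8 had an unadjusted p under 0.05, against 18.5%. The low stringency screen of the study, a p under 0.05 with a fold change over 1.5, was applied here with unadjusted p. It took 3 members in mesangial cells against 5.19% of all clusters, 2 in podocytes against 5.61% and 3 in endothelium against 3.82%. These were 10.3%, 7.41% and 10.7% of the members tested. Arrays of the genotypes did not overlap for 7, 8 and 11 members, while the same held for 28.6%, 21.3% and 25.1% of all clusters. Median log2 differences of the members, mutant minus wild type, were 0.03, -0.12 and -0.09, and those of all clusters -0.03, -0.04 and 0.07.

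In mesangial cells *Mmp16* fell. Its signal was 212, 224 and 227 in the wild type arrays and 82.7, 84.7 and 119 in those labelled mutant, so that every mutant array lay below every wild type array. The difference was -1.23 ± 0.15 (SE, n = 3 and 3) on the log2 scale, with an adjusted p of 0.0147, and it was -1.21 without wild type array C. Mutant arrays A and B lay below the signal minimum, so the fitted size rests in part on signals near background. Without mutant array A or B or wild type array B the adjusted p was 0.0561, 0.0715 and 0.0686.

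*Mmp3*, stromelysin-1, which cuts proteoglycans and laminin and activates other pro-MMPs, was higher in the mutant arrays but was not called. It read 49.5, 45.9 and 44.6 in wild type mesangial arrays and 60.3, 115 and 146 in those labelled mutant. The groups did not overlap, but only 2 of 18 arrays reached the signal minimum, both of them mutant mesangial. With the wild type group set to 100 the difference was at least 0.0069, so its size was not measurable here. The fitted difference had an adjusted p of 0.106, and of at most 0.265 over 12 alternatives. It passed the threshold at 0.00608 with all 18 arrays in 1 fit and at 0.0174 without mutant array A. Without wild type array C the differences of *Adamts9*, *Adam17* and *Adamts5* in mesangial cells were 0.66, -0.30 and -0.33, and neither these nor *Mmp3* were called. No podocyte or endothelial array exceeded 45.5. The promoter of this gene, with its AP-1 motif 46 bases before the start, is shown above, and *Mmp10* and *Mmp13*, other genes with this motif, stayed at or below 61.5 and 43.6 in all arrays.

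*Adamts9*, a hyalectanase of the secretory pathway and extracellular space, read 111, 206 and 135 in wild type and 186, 249 and 299 in mutant mesangial arrays, which overlapped. Its difference was 0.72 ± 0.26, with an adjusted p of 0.183. The gene has 6 clusters, whose mesangial differences ran from 0.03 to 1.08, and 1 of the others passed the adjusted threshold. *Timp3* was 1108, 1255 and 1695 in wild type and 1783, 1605 and 1869 in mutant mesangial arrays, a difference of 0.39 with an adjusted p of 0.228, and of 0.57 with 0.0654 without wild type array C. *Adamts5* differed by -0.24 and *Adam17* by -0.39, with no overlap of arrays but adjusted p of 0.216 and 0.139. *Mmp2* and *Mmp14* differed by 0.17 and 0.23, with adjusted p of 0.533 and 0.196. With 1 array left out the *Mmp2* difference ran from 0.047 to 0.28.

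*Adam22*, a catalytically inactive ADAM known as a neuronal receptor, varied within groups. It read 75.7, 212 and 58.5 in wild type mesangial arrays and 84.1, 380.2 and 519 in mutant ones, so 1 wild type array lay above 1 mutant array. It was named after its values were seen, and the other 12 arrays lay at or below 79.3.

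Markers moved with genotype in the mesangial arrays. Of 5 mesangial markers 4 were lower in every mutant array than in every wild type array and 1, *Meis1*, was higher in every mutant array. Their sums were 4353 to 4869.5 against 6360 to 7229, and the smooth muscle and juxtaglomerular sum was 1432 to 2398 against 1164 to 1449.5. On average 7 of 7 endothelial, 6 of 7 podocyte and 3 of 3 erythroid markers were lower in mutant arrays. These averages include wild type array C, which stood apart with sums of 7527, 3536 and 7227 over these lists. In wild type arrays A and B the endothelial sums were 2244 and 2640, against 2097 to 2431 in mutant arrays. The podocyte sums were 785 and 958 against 687 to 786, and the erythroid sums 559 and 271 against 176 to 361. Of the endothelial markers 2 were lower in every mutant array. The part of all these markers in the differences of *Mmp16*, *Mmp3* and *Adamts9* was not tested.

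In podocytes *Adamts5* had the largest difference among the members, though it was not called. Its signal was 1026, 999 and 725 in wild type arrays and 642, 269.8 and 132 in those labelled mutant. Every mutant array lay below every wild type array, and the mutant arrays differed among themselves by more than the wild type arrays did. Mutant array A, with the high erythroid sum given above, had an endothelial sum of 2484, against 1091 and 656 in its replicates. The log2 difference was -1.67 ± 0.50, with an adjusted p of 0.218, while over 13 alternatives it ran from 0.0183, with all 18 arrays in 1 fit, to 0.552, and it was 0.0290 without mutant array A. Without mutant array A the difference was -2.26, and without mutant array C -1.12.

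The mesangial and endothelial markers in the podocyte arrays moved with it. Of 7 endothelial markers all 7 were lower in every mutant array than in every wild type array, and of 5 mesangial markers 3 were. The summed mesangial signal was 2764, 2468 and 2082 in wild type arrays A, B and C and 1866, 1457 and 689 in mutant arrays A, B and C, and within each genotype it was lowest in the array where *Adamts5* was lowest. The smooth muscle and juxtaglomerular sum went the other way, with 651 to 661 in wild type and 925 to 2070.1 in mutant podocyte arrays, and 2 of its 4 genes were higher in every mutant array. *Adamts5* is at its highest in mesangial cells, and how much of its podocyte signal comes from such cells was not tested. *Mmp2*, also highest in mesangial cells, read 317, 246 and 268 in wild type and 365, 192 and 116 in mutant podocyte arrays, which overlapped.

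**Figure D3:**
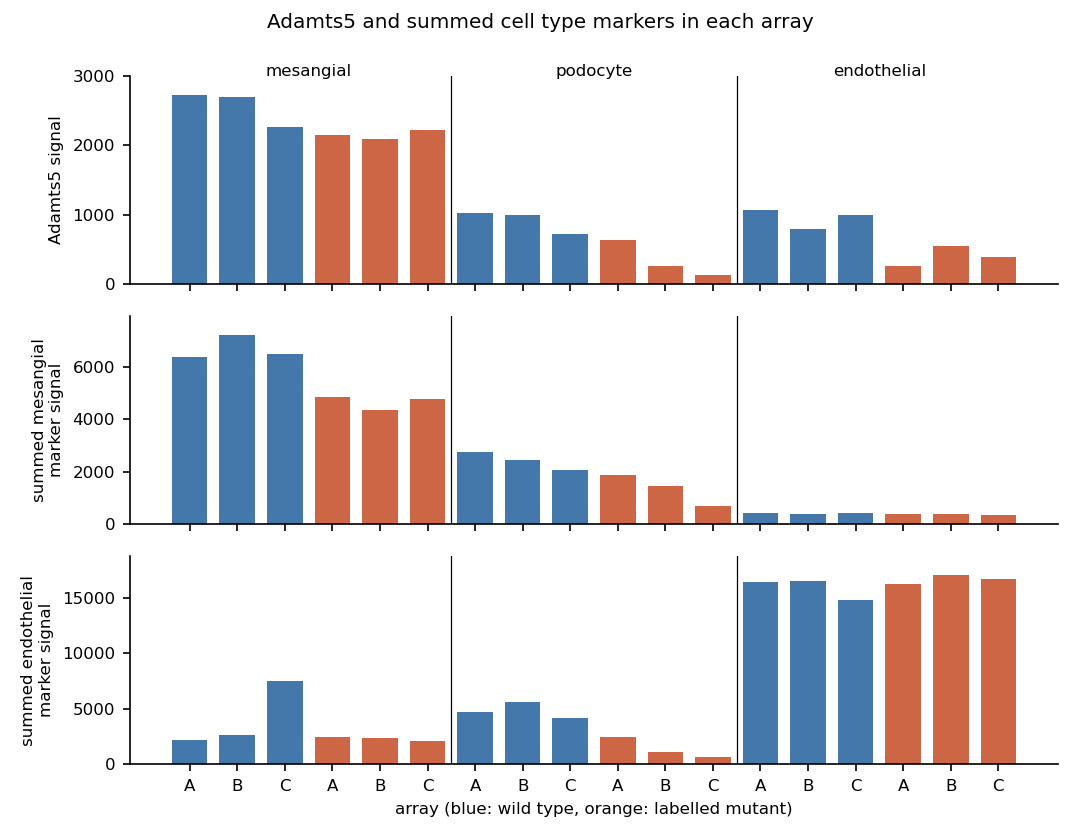
*Adamts5* signal (top), summed signal of 5 mesangial markers (middle) and of 7 endothelial markers (bottom) in each of the 18 arrays, with wild type in blue and labelled mutant in orange. In podocyte arrays all 3 quantities are lower in the mutant arrays. In endothelial arrays *Adamts5* is lower in the mutant arrays, and the mesangial markers sum to 405 to 428 in wild type and 355.7 to 410.5 in mutant arrays.

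*Adam17* read 316, 318 and 295 in wild type podocyte arrays and 256, 136 and 169 in mutant ones, and *Adam10*, the sheddase of Notch and many adhesion molecules, 294, 309 and 257 against 255, 196 and 189. Neither gene overlapped between genotypes, though the closest arrays of *Adam10* differed by little. The differences were -0.78 ± 0.22 and -0.43 ± 0.16, with adjusted p of 0.213 and 0.292. Both genes passed the threshold with all 18 arrays in 1 fit, though over 13 alternatives their adjusted p reached 0.528 and 0.637. Without mutant array A *Adam17* also passed, with an adjusted p of 0.0295. A second cluster that carries *Adam17* together with another symbol differed by 0.31, in the opposite direction, so the clusters disagree. Of the inhibitors, *Timp2* was 807, 801 and 683 in wild type and 1209, 992 and 909 in mutant podocytes, without overlap, a difference of 0.44 with an adjusted p of 0.271. *Timp3* read 2516, 2440.1 and 2443 against 2481, 1559 and 2021 and overlapped. *Mmp14* differed by -0.07, with an adjusted p of 0.882.

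*Adamts16* read 106, 100.4 and 111 in wild type podocytes and 66.0, 74.8 and 89 in mutant ones, without overlap. The mutant arrays lay below the minimum, so the wild type level was at least 0.081 higher on the log2 scale, with an adjusted p of 0.223. *Adamtsl4*, a microfibril-associated ADAMTS-like protein, was on the other side in podocytes, with 105, 102 and 124 against 146, 134 and 151. Its difference there was 0.38, and in endothelium it read 116, 104 and 116 against 96.3, 81.7 and 104. *Adam19*, a sheddase of neuregulin, read 108, 105 and 105 in wild type podocytes and 90.3, 87.4 and 78.7, all below the minimum, in mutant ones, so the wild type level was at least 0.084 higher.

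In endothelial cells *Adamts5* also had the largest difference. It read 1076, 792 and 998 in wild type arrays and 264, 548 and 399 in those labelled mutant, without overlap. The difference was -1.29 ± 0.25 with an adjusted p of 0.0540. Over 13 alternatives the adjusted p ran from 0.0164 to 0.204, with 0.0340 where the signal minimum had to be met in all arrays of a group and 0.113 with all 18 arrays in 1 fit. In these arrays 5 mesangial markers summed to 405 to 428 in wild type and 355.7 to 410.5 in mutant arrays, with *Meis1* the only one above 100, and the endothelial sum was 14786 to 16503 against 16260 to 17105. The part of either in the difference was not tested.

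*Adamts16* was lower in the same arrays, with 236, 212 and 270.5 in wild type and 97.5, 175 and 121 in mutant endothelium, a difference of -0.90 ± 0.21 with an adjusted p of 0.0885. Without mutant array B both it and *Adamts5* passed the threshold. *Adamtsl5*, an ADAMTS-like matrix protein, was 111, 134 and 129 against 97.5, 90.9 and 85.6, also without overlap, with the wild type level at least 0.31 higher and an adjusted p of 0.0949. *Adamts6*, a protease of the same family, was on the other side, with 48.7, 62.6 and 78.7 against 100.4, 147 and 79.2, with an adjusted p of 0.184. It was tested through 2 mutant arrays alone, the difference was at least 0.073, and its nearest arrays of the 2 genotypes were 78.7 and 79.2.

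*Timp3* read 1719, 1582 and 1508 in wild type endothelium and 2389.7, 2187 and 1923 in mutant endothelium. Each mutant array exceeded each wild type array, and the difference of 0.43 ± 0.11 had an adjusted p of 0.113, and of 0.0467 to 0.321 over 13 alternatives, the lowest with an intensity trend and robust estimation in limma. *Adam10* was 566, 590.1 and 571 against 641, 729.8 and 742, a difference of 0.29 with an adjusted p of 0.184. *Adam17*, *Mmp14* and *Timp2* overlapped between genotypes, with differences of 0.10, 0.28 and 0.06, and *Mmp2* reached 100 in only 1 endothelial array.

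**Figure D4:**
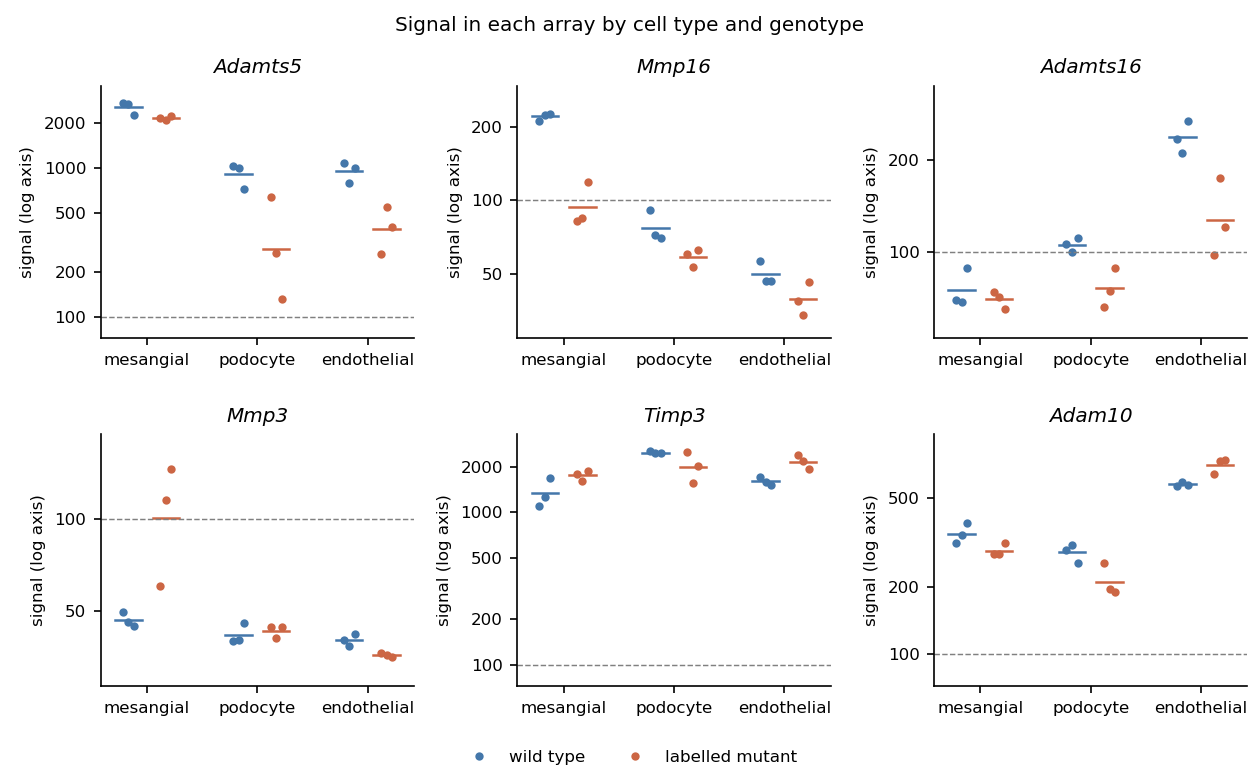
Signals (log axis) of 6 members in each array by cell type, wild type in blue and labelled mutant in orange, with the geometric mean of 3 arrays as a bar and the signal minimum of 100 as a dashed line. *Adamts5* is lower in mutant arrays of all 3 cell types, *Mmp16* in mesangial cells, *Adamts16* in endothelium, and *Mmp3* exceeds 100 only in 2 mutant mesangial arrays.

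The mean genotype effect over the 3 cell types was estimated in a fit of all 18 arrays. It was called for 3 of 37 members, all lower in mutants, which is 8.11% against 5.86% of the 13523 clusters tested. *Adamts5* fell by 1.07 on the log2 scale, with an adjusted p of 0.0110. *Mmp16* and *Adamts16* were lower with adjusted p of 0.000575 and 0.0102. Each of the 3 calls held in all 24 alternatives tried, 18 of them with 1 array left out. The signals of *Mmp16* in endothelium, 34.1 to 56.5, and in podocytes, 53.3 to 91, were below the minimum. Those of *Adamts16* were below it in mesangial cells and in mutant podocytes. The means of *Mmp16* and *Adamts16* thus average in signals near background, and their size is not given. *Adamts5* was above 100 in every array, and its differences were -0.24, -1.67 and -1.29 in mesangial cells, podocytes and endothelium. Its mean thus rests mainly on podocytes and endothelium. Mesangial and endothelial markers were also lower in mutant podocyte arrays, and their part in this mean was not tested. Of the 21 members tested in all 3 cell types, 4 were lower in each of them, *Adam12*, *Adam19*, *Adamts5* and *Adamtsl5*, and 1 was higher in each, the cluster shared by *Mmp7* and *Rpl29*. Of the 9916 clusters tested in all 3 cell types, 12.5% were lower in each and 13.7% higher in each.

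**Figure D5:**
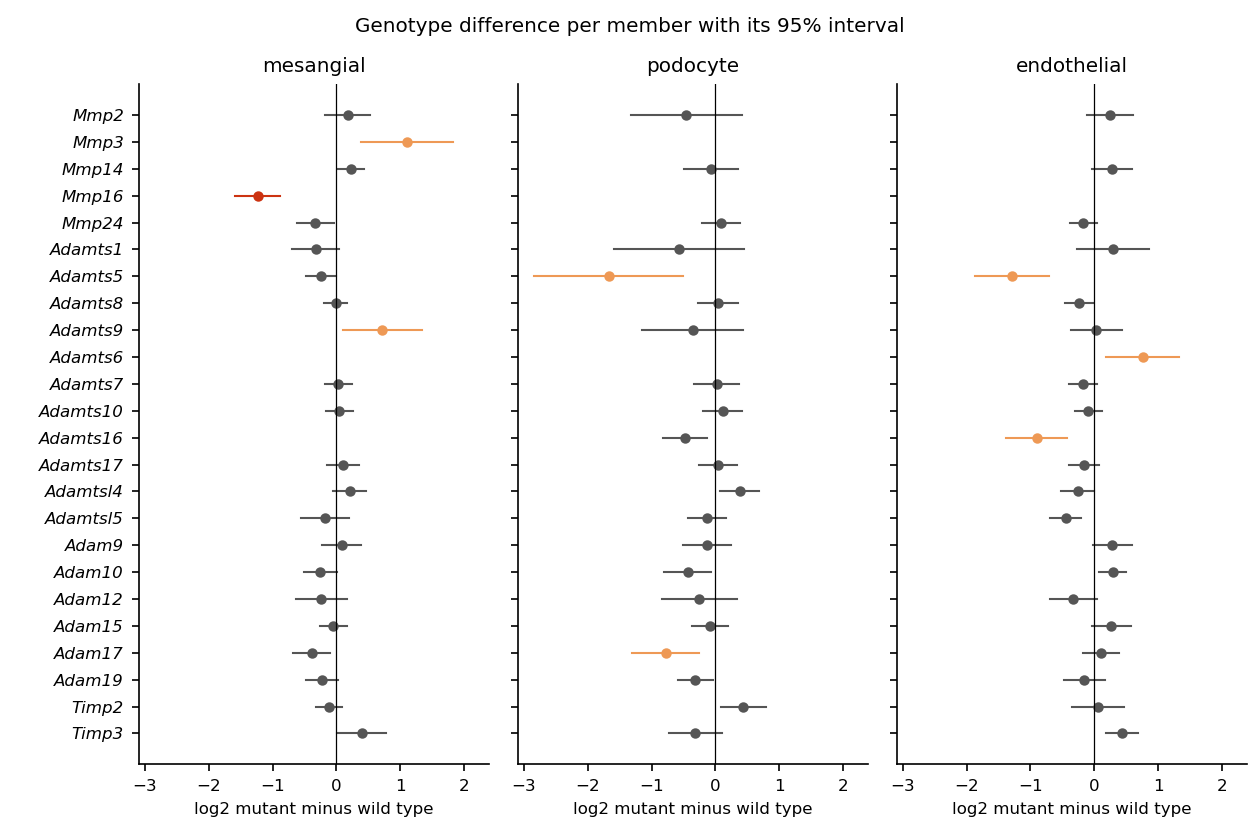
Log2 difference between arrays labelled mutant and wild type with its 95% interval, for members in rows and cell types in panels, red where the adjusted p was under 0.05, orange where the low stringency screen alone was passed and grey otherwise. A member not tested in a cell type has no point there and not every member tested is drawn. Fitted values are drawn also where a group lies below the signal minimum, as for *Mmp3* and *Adamts6*. Only *Mmp16* in mesangial cells is red, and the interval of *Adamts5* in podocytes runs from -2.84 to -0.50.

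Whether the genotype effect differed between cell types was tested as an interaction over all 18 arrays. Podocytes against mesangial cells gave no call among 37 members, against 0.717% of 13523 clusters, and 7 members with an unadjusted p under 0.05, against 12.0% of clusters. Endothelial against mesangial cells gave none either, against 1.07%, and 8 with an unadjusted p under 0.05, against 15.9%. In the latter *Mmp3* and *Mmp16* came closest, with adjusted p of 0.0504 and 0.0547. Both genes lay below the minimum in every endothelial array, so no endothelial genotype effect was measurable and no size is given. These p-values rest on the mesangial difference, whose size was not measurable for *Mmp3*. Endothelial cells against podocytes gave 1 call, 2.70% of the members against 2.11% of all clusters, and 8 members with an unadjusted p under 0.05, against 23.4%.

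That call was *Adam10*, whose genotype effect was 0.29 in endothelium and -0.43 in podocytes. The effects differed by 0.72 ± 0.17, with a 95% interval from 0.36 to 1.09 and an adjusted p of 0.0412. The next members by adjusted p did not pass, *Adamtsl4* with -0.65, *Adam17* with 0.88 and *Timp3* with 0.74, at 0.0501, 0.0702 and 0.0822. *Adamts1* differed by 0.85 with a larger error, at an adjusted p of 0.311. Podocyte arrays labelled mutant held fewer endothelial markers than wild type ones, while *Adam10* and *Adam17* have their highest level in endothelium, and the part of these markers in the difference was not tested. With 1 array left out the *Adam10* call was kept in 5 of 18 cases, those without mutant mesangial C, wild type mesangial A or C, mutant podocyte A or wild type podocyte C, and lost in the other 13 with adjusted p of at most 0.0968.

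Genes that mature or restrain these proteases were read from a list of 17, with 11 other secreted or surface metalloproteinases and 5 hyalectans and link proteins. In mesangial cells 1 of 9 tested genes of the first list was called, against 2.92% of all clusters, and none of 4 of the second. *Tspan15*, a tetraspanin that escorts ADAM10 to the cell surface, fell there from 177, 237 and 269.7 in wild type to 80.5, 56.7 and 70.5 in mutant arrays, all 3 of them below the minimum, with an adjusted p of 0.0126. It entered this test through the 3 wild type arrays alone, which favours a call. Its wild type level was at least 1.17 higher on the log2 scale, and the adjusted p was 0.0157 without wild type array C and 0.0561 without wild type array B. In the same arrays the podocyte marker sum was 785, 958 and 3536 in wild type and 687 to 786 in mutant, with 6 of 7 markers lower on average, and their part in the fall of *Tspan15* was not tested. In podocytes it read 743, 403 and 452 against 342, 337 and 296, with a difference of -0.66 and an adjusted p of 0.270, and in endothelium it differed by 0.08. *Reck*, a membrane inhibitor of several MMPs, was 248, 262 and 278 in wild type and 169.8, 173 and 116 in mutant podocytes, a difference of -0.80 with an adjusted p of 0.155. No gene of either list was called in podocytes or endothelium by limma, with 12 and 9 of the first and 4 and 3 of the second tested. In the mean effect over cell types 2 of 12 tested genes of the first list were called, against 5.86% of all clusters. *Furin*, which cleaves the propeptide of many of these enzymes, rose by 0.29, with an adjusted p of 0.0387. *Tspan15* was lower, with an adjusted p of 0.00221. The size of its mean effect is not given, since the mutant mesangial arrays in it lay below the minimum. None of the 5 hyalectan and link protein genes, *Vcan* among them, entered any of these tests, since none reached the signal minimum.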

How the data were processed

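Sorted glomerular cells were profiled on 18 Affymetrix arrays, after RNA amplification, and the RNA-seq data of the study were not analysed here. The authors deposited 1 table of linear signal intensity per transcript cluster. The sample records name RMA in Expression Console and the methods of the study GeneSpring. Both those methods and the file header name the Mouse Gene 1.0 ST array, but the series record exon arrays with GeneBASE, so the sources conflict. A further 18 per-sample columns, which hold the log2 signal minus its median per cluster, were not used. Column names give the group of an array but not its sample record.

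Signals were converted to log2 and tested in limma 3.58.1 (R 4.3.3), on clusters whose signal reached 100 in 1 or more arrays of the fit, with Benjamini-Hochberg adjustment over all clusters tested and a call at an adjusted p under 0.05. The study's low stringency screen, p under 0.05 with fold change above 1.5, is given beside it and was applied here to unadjusted p. No culture or animal is named for an array in the table, so p-values measure the spread between arrays. Named by rule were *Adamts5*, *Timp3*, *Mmp2*, *Adam10*, *Adam17*, *Mmp14*, the TIMPs, members called or passing the screen by genotype, members called in an interaction and up to 8 highest per wild type cell type. Other members were named after their values were seen. The members and lists were chosen with earlier results of these data known. The scripts were tested on simulated data. Alternatives changed the signal minimum, the arrays fitted, the variance moderation, the normalization, the cluster per gene and the call rule, or left out 1 array. Promoters came from RefSeq, build GRCm38.p6. The reporter of the podocytes is not reported here.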

Additional observations from a re-analysis of the deposited data

Results flagged for a closer look

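The genotype effect on *Adam10* differed between endothelial cells and podocytes by 0.72 on the log2 scale, by a test of the difference itself over 18 arrays. It was positive in endothelium, where 3 of 3 arrays labelled mutant exceeded every wild type array, and negative in podocytes, where 3 of 3 lay below. The nearest podocyte arrays were 255.2 in mutant A and 256.8 in wild type C. Neither effect was called alone, with adjusted p in limma of 0.184 and 0.292. Endothelial markers were lower in mutant podocyte arrays, and their part in the difference was not tested. Over 24 alternatives the difference of the effects ran from 0.53 to 0.86 with adjusted p in limma from 0.00417 to 0.0968, and its call was kept in 10 of them.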

How the results depend on the processing

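Of the values of single members under an alternative, 914 kept their direction and their side of the threshold, 13 gained a call, 32 lost one and 7 changed sign. Those that changed sign were small. *Mmp14* in podocytes was 0.042 after repeated quantile normalization and ran from -0.18 to 0.086 with 1 array left out, above 0 without mutant array C or wild type array A. In endothelium repeated quantile normalization gave -0.011 for *Adam17* and -0.050 for *Timp2*, and *Timp2* ran from -0.084 to 0.27 with 1 array left out, below 0 without mutant array A or C. With all 18 arrays in 1 fit, 2 members were called in mesangial cells, 3 in podocytes and 1 in endothelium. The low stringency screen took 3, 2 and 3, and counting any cluster of a gene gave 2 in mesangial cells, *Adamts9* and *Mmp16*. In endothelium 1 member was called with the signal minimum in all arrays of a group, 1 with array medians subtracted, both times *Adamts5*, and 1 with trend and robust estimation, *Timp3*. For endothelial against mesangial effects the first pair of settings gave 1 call each, *Mmp16*, which lies below the signal minimum in endothelium. For endothelial against podocyte effects the count was 2 with the signal minimum in all arrays, 2 with trend and robust estimation, 4 with medians subtracted, 0 after repeated quantile normalization, and 2 each with single-symbol clusters or any cluster. With 1 array left out, genotype calls ran from 0 to 1 in mesangial cells, 0 to 2 in podocytes and 0 to 2 in endothelium. The mean effect gave 3 to 5, podocyte against mesangial effects 0 to 2, endothelial against mesangial 0 to 2 and endothelial against podocyte 0 to 6, the last without mutant podocyte array A. Among wild type cell types the counts ran from 12 to 16, 16 to 18 and 15 to 19. Apart from the low stringency screen, the share of all clusters called under each alternative is not given here. The counts therefore show how far the calls moved and cannot be set against a background. The cause of these shifts was not tested. Signals near 100 have little margin over background, which limits the dim members. No paired analysis was possible because the groups share no replicate numbers.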
